A study of Mus musculus with 6 samples.

Results

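The genes described here are 10 markers of the cells that share the heart with its muscle cells: Pecam1, Cdh5, Kdr and Eng for endothelial cells, Notch3, Rgs5, Pdgfrb and Acta2 for mural cells, and Col1a1 and Dcn for fibroblasts. They were chosen by name, 10 of 46078 counted features, together with the 2 counted features whose exons lie across from theirs on the other DNA strand. The question was how much signal of such cells each library of isolated heart muscle cells held, and whether it differed between Acly_KD and control. No marker passed the test, where 0.00% of all features did as deposited and 0.413% of genes did in a reading of the counts as mRNA. The groups overlapped for all 10 at their own loci. They were apart for 11.4% of the features with enough reads for the test, which only 3 of the 10 markers had.

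The Acly_KD libraries, replicates 1 to 3, came from heart muscle cells of mice in which Acly was knocked down on a MyH6-Cas9 background, where the promoter of the myosin heavy chain gene Myh6 limits Cas9 to heart muscle cells. The controls, replicates 1 to 3, carry the genotype wildtype in the labels, and the sources used here do not say whether they also carry Cas9. All cells were taken by perfusion of the heart outside the body, and poly-A RNA was sequenced from libraries that mark strand. Age, sex, strain, guide delivery and whether each library was 1 animal are also not stated there, so a p-value here reflects only how much the libraries vary, which can be technical. Values of a group are given in the order of replicates 1, 2 and 3. Acly itself, which encodes ATP citrate lyase, had 0, 0 and 0 reads in Acly_KD, against 1, 5 and 6 in control. With 3 reads allowed for the whole Acly_KD group and the 12 control reads taken as exact, it was at least 4.10-fold lower there. An exact permutation test of its scaled counts gave p = 0.1, the lowest that 3 libraries against 3 can reach. The strand of these reads is uncertain, as set out below, so they may not be reads of Acly mRNA.

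Heart muscle cells make up most of the volume of the heart, but endothelial cells, mural cells and fibroblasts together outnumber them. Endothelial cells line the vessels, mural cells (pericytes on capillaries and smooth muscle on larger vessels) wrap them, and fibroblasts lie between muscle fibres and make the collagen matrix. Perfusion with digesting enzymes frees all of these, and a preparation of muscle cells is usually enriched by letting the large cells sink, which leaves some of the others behind. In RNA of a bulk preparation, fewer cells of a type and less RNA per cell cannot be told apart.

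Reads in features numbered 271463 to 814765 per library, and 91.9% of the nuclear ones lay in features with exons opposite to those of another gene. A read counted in a marker's own feature is therefore taken here as a read of the strand opposite to its transcript, and such counts are called own-locus counts. They were few: the 10 markers together held 439 reads over the 6 libraries, 0.0116% of all reads in features. Own-locus reads as a whole were also unequal between libraries. Features with no exons opposite held 4.96%, 6.96% and 10.3% of the nuclear reads in Acly_KD, against 9.04%, 9.03% and 7.79% in control, so Acly_KD replicate 3 was the highest library and replicate 1 the lowest. The part of this difference in the results below was not tested, and values are given on more than 1 scale where it bears on them.

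Of the 10 markers, 8 have no annotated exon on the other strand, and for those the deposited counts hold no second view. The 2 exceptions are Notch3 and Eng. Notch3 (chromosome 17, 32120820 to 32166852, minus strand, mm10) faces Gm17276, an antisense RNA gene, over 488 bases in 2 pieces of 155 and 333 bases, which lie in its coding exons 26 and 25. Eng (chromosome 2, 32646595 to 32682669, plus strand) meets Fpgs, the gene of folylpolyglutamate synthase, tail to tail over 61 bases at the end of the 3′ UTR in its last exon. If the strands were swapped in counting, Notch3 mRNA from those exons falls into the Gm17276 count and Eng mRNA from that end into the Fpgs count. The shorter of the shared stretches is shown as each transcript reads it, because it is where a Notch3 read and a Gm17276 read differ in strand alone. The 155 shared bases (chr17:32139645-32139799) are in capitals, with 10 bases of each transcript on either side in lower case, from the GENCODE M21 transcripts of mm10.
Notch3 exon 26, minus strand: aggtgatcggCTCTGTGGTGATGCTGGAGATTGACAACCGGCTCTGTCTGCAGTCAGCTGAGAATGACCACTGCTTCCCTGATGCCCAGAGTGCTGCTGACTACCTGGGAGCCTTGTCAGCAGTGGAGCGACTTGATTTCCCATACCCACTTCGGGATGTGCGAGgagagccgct
Gm17276 exon 2, plus strand: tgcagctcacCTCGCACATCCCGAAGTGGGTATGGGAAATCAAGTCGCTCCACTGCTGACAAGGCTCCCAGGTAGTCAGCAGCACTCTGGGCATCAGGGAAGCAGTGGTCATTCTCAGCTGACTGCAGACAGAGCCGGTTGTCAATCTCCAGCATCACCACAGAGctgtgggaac
The capitals of each line are the reverse complement of those of the other.

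**Figure D1:**
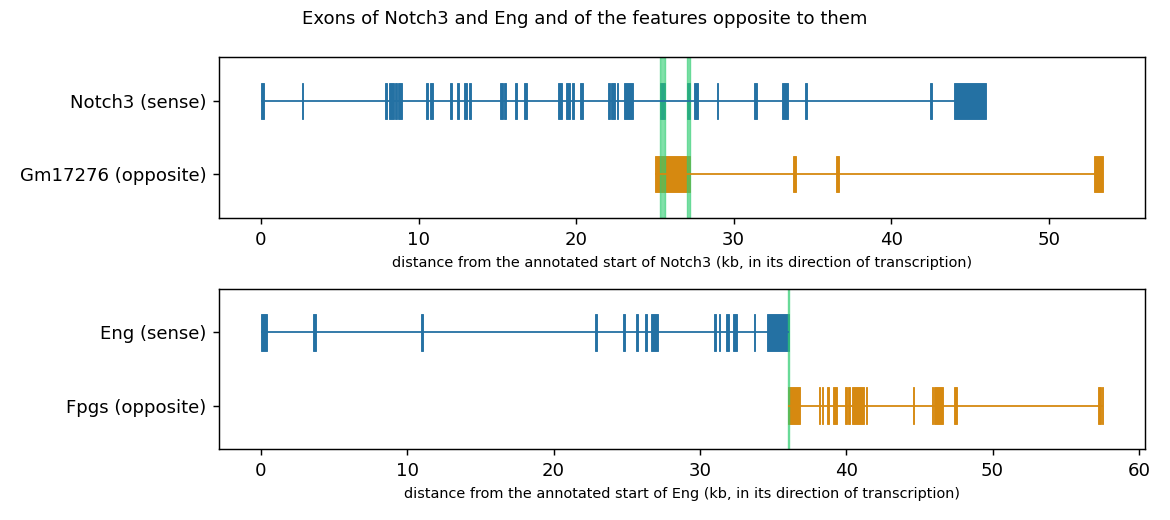
Exons (boxes) of Notch3 and Gm17276 (upper panel) and of Eng and Fpgs (lower panel), drawn by distance in kb from the annotated start of Notch3 or Eng, with shared exonic bases shaded green. Gm17276 covers 488 exonic bases of Notch3 in its interior, and Fpgs shares only the last 61 bases of Eng.

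At their own loci the 4 endothelial markers were highest in Acly_KD replicate 3 and otherwise low in both groups. Pecam1 (CD31, the adhesion molecule of endothelial junctions; chromosome 11, 106654217 to 106750628) had 0, 3 and 27 reads in Acly_KD, against 4, 14 and 5 in control. In CPM (read counts relative to library size, scaled by TMM), that was 13.7 ± 17.8 in Acly_KD and 12.8 ± 4.94 in control (SD, n = 3 each). The controls lay inside the range of the Acly_KD libraries, and the log2 fold change was 0.22 (95% interval -1.85 to 2.29, adjusted p = 0.977 in edgeR). Without control replicate 3 its sign turned, at -0.12. Pecam1 was the only endothelial marker with enough reads for the test.

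Cdh5 (VE-cadherin, the cadherin of endothelial junctions; chromosome 8, 104101625 to 104144511) had 3, 1 and 15 reads in Acly_KD, against 0, 7 and 4 in control, or 8.60 ± 8.86 CPM in Acly_KD and 4.68 ± 4.24 CPM in control (SD, n = 3 each). Kdr (VEGFR2, the main signalling receptor for VEGF-A; chromosome 5, 75932827 to 75978458) had 2, 0 and 8 reads in Acly_KD, against 2, 5 and 2 in control. Eng (endoglin, a co-receptor for TGF-beta family ligands in endothelium) had 2, 5 and 22 reads in Acly_KD, against 4, 9 and 8 in control, or 14.3 ± 12.3 CPM in Acly_KD and 12.2 ± 2.06 CPM in control (SD, n = 3 each). For each of these genes the highest CPM was that of Acly_KD replicate 3 and the groups overlapped. A library at 0 reads still allows 3 reads, which is 3.55 to 10.9 CPM depending on its depth, a range that holds both group means of Cdh5.

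Notch3, the Notch receptor of mural cells, had the most own-locus reads of the 10 markers, 12, 12 and 32 in Acly_KD, against 6, 14 and 32 in control. That was 29.2 ± 10.8 CPM in Acly_KD and 28.1 ± 15.7 CPM in control (SD, n = 3 each), and the log2 fold change of 0.04 had a 95% interval between -0.998 and 1.08 (adjusted p = 0.987 in edgeR). Replicate 3 was the highest library within each group. Its sign turned in 4 of 13 alternatives, and without control replicate 3 the log2 fold change was 0.66. Rgs5 (chromosome 1, 169655501 to 169695813), a regulator of G protein signalling and a common pericyte marker, had 6, 7 and 36 reads in Acly_KD, against 9, 21 and 15 in control. Its CPM were 23.8 ± 18.8 in Acly_KD and 26.4 ± 5.76 in control (SD, n = 3 each), at a log2 fold change of -0.05 (95% interval -1.22 to 1.12, adjusted p = 0.986 in edgeR). Without Acly_KD replicate 3 that value was -0.95. Acly_KD replicate 3 held the highest Rgs5 value and Acly_KD replicate 1 the lowest, with the controls between them.

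Acta2, the smooth muscle actin gene (chromosome 19, 34241090 to 34255590), had 0, 3 and 9 reads in Acly_KD, against 3, 8 and 12 in control, or 6.19 ± 5.71 CPM in Acly_KD and 12.5 ± 4.14 CPM in control (SD, n = 3 each). Acly_KD replicate 3, at 11.2 CPM, lay among the controls, which ran from 9.47 to 17.3 CPM. Pdgfrb, the PDGF-B receptor through which pericytes are recruited to vessels (chromosome 18, 61045150 to 61085061), was near the floor, with 0, 2 and 1 reads in Acly_KD, against 0, 3 and 0 in control.

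Dcn, which encodes the collagen-binding proteoglycan decorin (chromosome 10, 97479609 to 97518143), had 4, 6 and 7 reads in Acly_KD, against 3, 14 and 3 in control. Its CPM were 9.85 ± 4.36 in Acly_KD and 10.6 ± 6.13 in control (SD, n = 3 each), and control replicates 2 and 3 were the highest and the lowest of the 6 libraries. Col1a1, the alpha 1 chain of type I collagen (chromosome 11, 94936224 to 94953042), had 2, 1 and 1 reads in Acly_KD, against 0, 0 and 3 in control. Neither gene was highest in Acly_KD replicate 3.

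**Figure D2:**
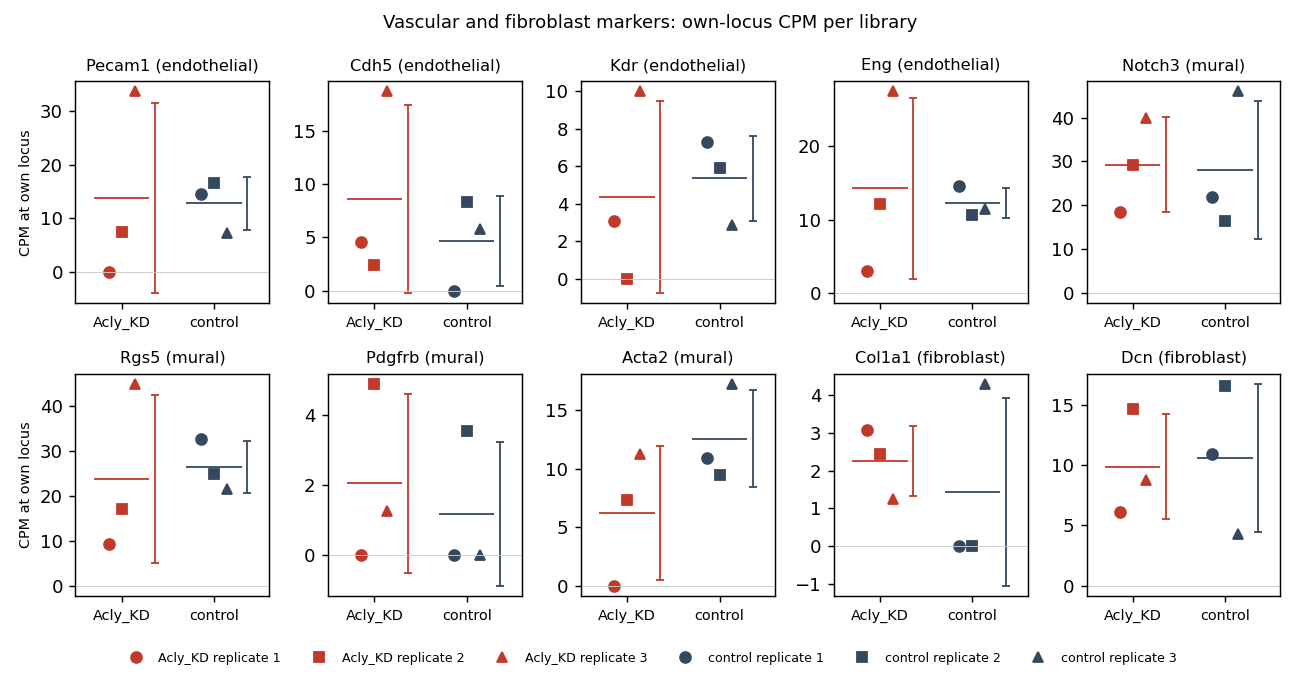
Own-locus CPM of each of the 10 markers (y axis, linear, a scale of its own per panel) in Acly_KD and control libraries; symbols are replicates, horizontal lines are group means and bars are SD (n = 3 each). Acly_KD replicate 3 is the highest library for Pecam1, Cdh5, Kdr, Eng and Rgs5, and the groups overlap in every panel.

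In edgeR's quasi-likelihood fit, adjusted by Benjamini-Hochberg over 2952 features, 0 of the 3 markers with enough reads (Pecam1, Notch3 and Rgs5) were called, where 0.00% of all features were called. At an unadjusted p under 0.05 there were 0 of the 3, against 6.10% of all features, and DESeq2 also called 0. The groups were apart for 0 of the 10 markers, against 11.4% of the features tested, among which were only 3 of the 10. With no filter on low counts, the other 7 markers had log2 fold changes from -0.96 (Acta2) to 0.74 (Cdh5), and their 95% intervals reached from -2.86 to 3.21 (lowest adjusted p of the 10 markers 0.736 in edgeR). Exact two-sided permutation tests of the CPM of each of the 10 markers gave p from 0.3 to 0.9, where 3 libraries against 3 cannot go below 0.1.

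The share of markers that peaked in Acly_KD replicate 3 is given beside that of other features. It was the highest library for 5 of the 10 markers, all 4 endothelial ones and Rgs5, and for 16.8% of all features tested. Among the 715 tested features with no exons opposite, which are own-locus counts like those of the markers, it was 28.7%. It was also the highest library for 10 of 16 genes of a heart muscle list and for 7 of the 29 other endothelial genes measured.

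Marker reads were then set against heart muscle reads of the same kind, a scale chosen after the data were seen. The denominator was the own-locus count of 8 heart muscle genes with no exons opposite (Tnnt2, Tnni3, Actc1, Mybpc3, Ryr2, Actn2, Tnnc1 and Nkx2-5), which summed to 1020, 1320 and 4560 reads in Acly_KD, against 1459, 4196 and 3142 in control. This denominator was itself lower in Acly_KD on average. Of a list of 16 heart muscle genes, 15 were tested at their own loci and all 15 had a log2 fold change below zero (median -0.43), with 0 called by edgeR. The 16 genes summed to 5235, 10321 and 18453 CPM in Acly_KD, against 17015, 16094 and 13806 CPM in control, so Acly_KD replicates 1 and 2 were the lowest libraries and Acly_KD replicate 3 the highest. A ratio to muscle reads moves with the muscle reads as well as with the marker reads, so CPM are given beside it.

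The 4 endothelial markers came to 6.86, 6.82 and 15.8 reads per 1000 muscle reads in Acly_KD, against 6.85, 8.34 and 6.05 in control. Acly_KD replicate 3, with an exact 95% interval from 12.3 to 19.9, had the highest value, and Acly_KD replicates 1 and 2 lay within the range of the controls. Its interval lay above those of control replicates 2 (5.80 to 11.6) and 3 (3.64 to 9.46) and met those of Acly_KD replicates 1 (2.75 to 14.2) and 2 (3.11 to 13.0) and control replicate 1 (3.28 to 12.6). These intervals, from the Clopper-Pearson method, cover counting error only.

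In the 23 other endothelial genes with no exons opposite, Acly_KD replicate 3 did not stand apart on this scale. They came to 52.9, 34.1 and 52.4 reads per 1000 muscle reads in Acly_KD, against 45.2, 41.9 and 30.6 in control. The most abundant of them was Fabp4, the fatty acid binding protein of capillary endothelium and fat cells, with 15, 10 and 127 reads in Acly_KD, against 27, 76 and 46 in control. Fabp4 gave 127 of the 239 reads of these genes in Acly_KD replicate 3, which was its highest library on the muscle scale too. In CPM the 23 genes came to 82.9, 109.9 and 299 in Acly_KD, against 240.3, 208 and 138 in control. There, and per read in features with no exons opposite, Acly_KD replicate 3 was the highest library, as it was for the 4 markers.

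The 4 mural markers came to 17.6, 18.2 and 17.1 reads per 1000 muscle reads in Acly_KD, against 12.3, 10.96 and 18.8 in control. The 3 Acly_KD libraries were close together, and control replicate 3 was above them. The 12 other mural genes with no exons opposite came to 8.82, 11.4 and 11.0 in Acly_KD, against 4.80, 6.91 and 7.96 in control, and there the groups did not overlap. In CPM the same 12 genes came to 13.8, 36.6 and 62.5 in Acly_KD, against 25.5, 34.3 and 35.9 in control, and the groups overlapped, as they did per read in features with no exons opposite. The 2 fibroblast markers came to 5.88, 5.30 and 1.75 in Acly_KD and to 2.06, 3.34 and 1.91 in control, with intervals that overlapped between all libraries. For the 10 markers summed, the values were 30.4, 30.3 and 34.6 in Acly_KD and 21.2, 22.6 and 26.7 in control, so the groups were apart, by 1.35-fold in their means. In CPM, which does not use the lower muscle denominator, the same ratio was 0.990 and the groups overlapped. On this scale the groups were apart for 8.10% of the features tested, and all 3 Acly_KD libraries lay above all 3 controls for 7.42%. These shares are over 2952 single features, 715 of them with no exons opposite, and not over sums of genes. Without Notch3 and Eng, the markers with exons opposite, the sum of the other 8 was 16.7, 17.4 and 22.8 in Acly_KD. Control replicates 1 and 2 had 14.4 and 17.2, control replicate 3 was lower than both, and the groups overlapped.

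**Figure D3:**
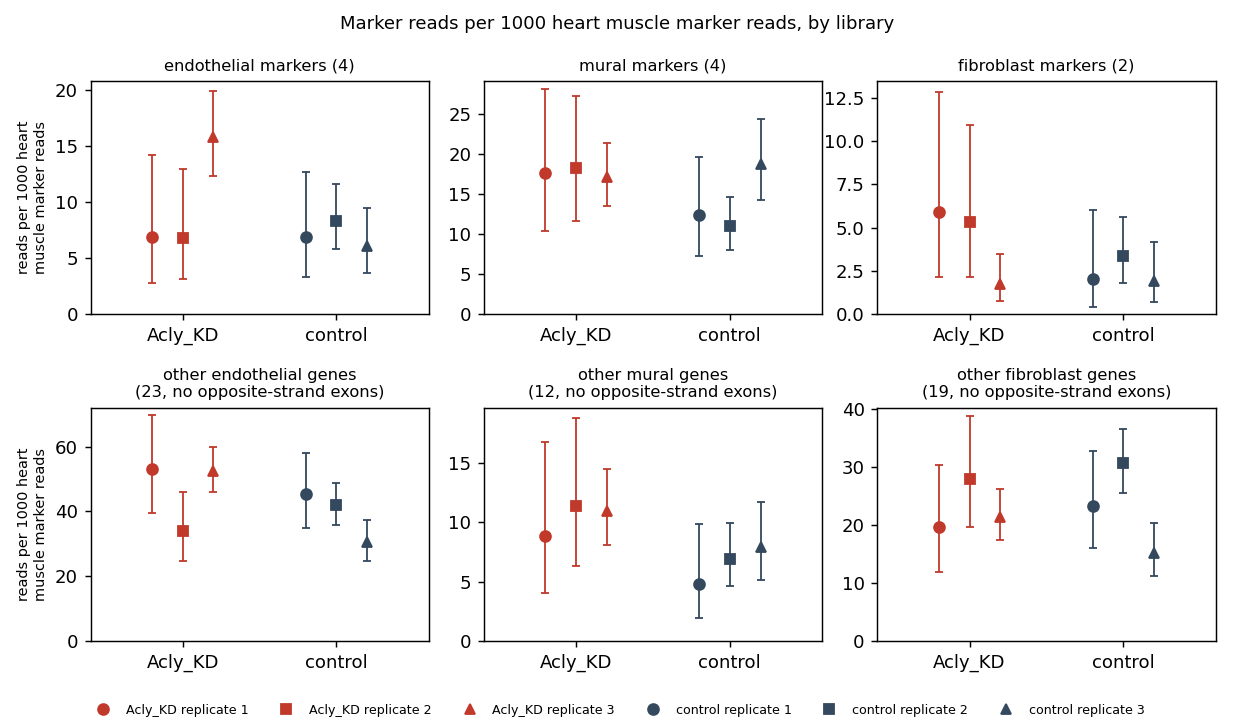
Own-locus marker reads per 1000 own-locus reads of 8 heart muscle genes (y axis, from 0) for the endothelial, mural and fibroblast markers (upper row) and for other genes of the same cell types with no opposite-strand exons (lower row); points are libraries and bars are exact 95% intervals. Acly_KD replicate 3, at 15.8, stands above the other libraries for the 4 endothelial markers but not for the 23 other endothelial genes.

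Scaled to library size instead, the 10 markers summed to 47.6, 97.7 and 197 CPM in Acly_KD, against 113, 112 and 121 CPM in control. The means were nearly equal, 114 ± 76.3 CPM in Acly_KD and 115 ± 4.71 CPM in control (SD, n = 3 each), while the Acly_KD libraries ran from below to above all controls in the same order as their share of reads in features with no exons opposite. For the endothelial sum alone, 40.9 ± 42.9 CPM in Acly_KD and 35.0 ± 7.14 CPM in control, the log2 ratio of the means was 0.22 with all libraries and -1.10 without Acly_KD replicate 3. The mural sum had a log2 ratio of -0.16 and the fibroblast sum of 0.01, and leaving out single libraries moved them between -0.66 and 0.19 and between -0.33 and 0.31. Set against reads in features with no exons opposite, the ratios were 0.29, 0.02 and 0.38 for endothelial, mural and fibroblast markers.

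Notch3 and Eng were then read through the features opposite to them. Gm17276 held 73, 43 and 97 reads in Acly_KD, against 19, 84 and 78 in control. Per kb of exon, that was 125 reads over the 6 libraries, against 13.4 at the Notch3 locus itself. It read 113 ± 8.14 CPM in Acly_KD and 93.6 ± 22.1 CPM in control (SD, n = 3 each), and the highest control, 112 CPM, lay within the Acly_KD range. As deposited its log2 fold change was 0.24 (95% interval -0.28 to 0.76, adjusted p = 0.959 in edgeR). When the counts of each feature were given to the gene across from it, which left 1453 genes tested, Notch3 read 204, 196 and 245 CPM in Acly_KD, against 135, 195 and 213 CPM in control. Its log2 fold change was then 0.21 (95% interval -0.27 to 0.70, adjusted p = 0.872 in edgeR), and the interval was narrower than at its own locus. The direction was the same in all 15 alternatives run, from 0.08 to 0.34.

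The count of Gm17276 need not be exonic Notch3 mRNA alone. Its second exon also spans the Notch3 intron between the shared pieces, and its remaining exons lie away from Notch3 exons. Reads of spliced Notch3, of unspliced Notch3 and of any transcript across from the rest of Gm17276 cannot be told apart in this count.

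Fpgs held 23, 12 and 33 reads in Acly_KD, against 8, 45 and 36 in control. Given to Eng, these were 67.4 ± 14.6 CPM in Acly_KD and 86.5 ± 25.8 CPM in control (SD, n = 3 each), with control replicate 1 inside the Acly_KD range. The log2 fold change was -0.40 (95% interval -1.10 to 0.29, adjusted p = 0.788 in edgeR), below zero in all 14 alternatives, where Eng at its own locus had a value above zero without a filter, 0.35. Only 61 of the 3802 exonic bases of Fpgs face Eng, so most of its reads can come from elsewhere in Fpgs, and this is a weak view of Eng mRNA. In this reading 0 of the 2 markers were called by edgeR, where 0.413% of all genes were called, and DESeq2 also called 0. At an unadjusted p under 0.05 there were 0 of the 2, against 8.60% of all genes. The groups were apart for 0 of the 2, against 14.7% of all genes.

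**Figure D4:**
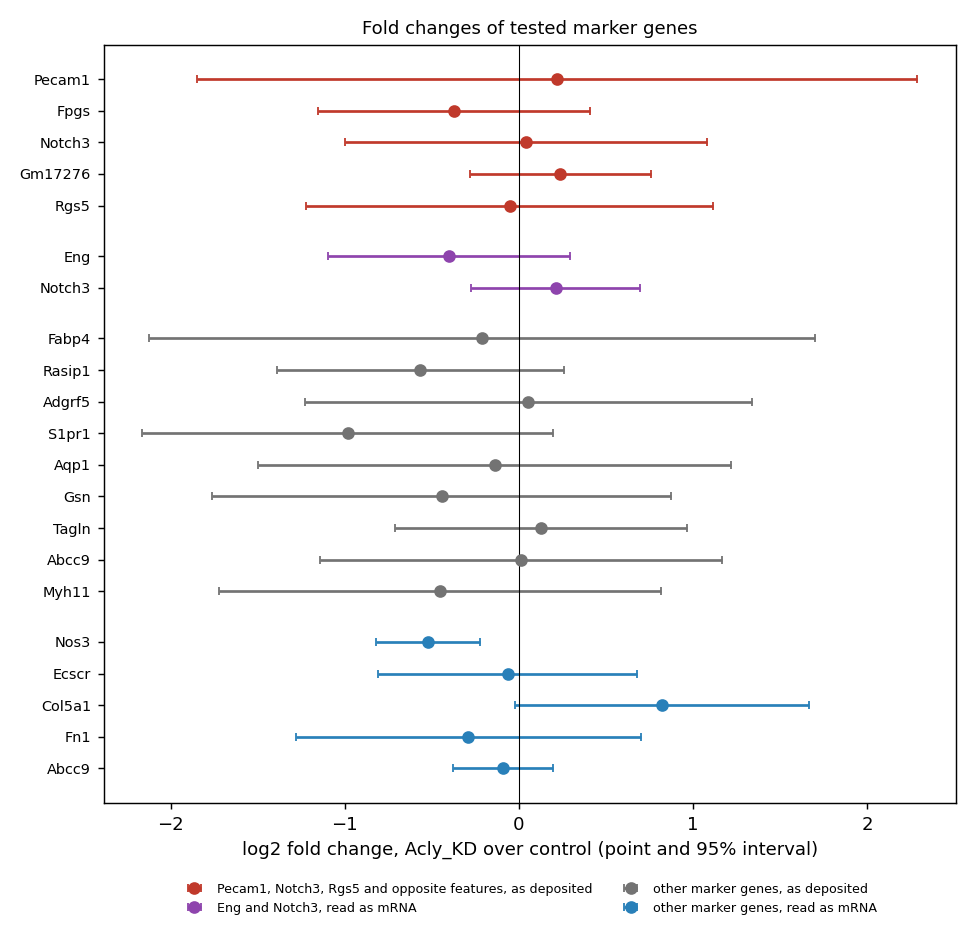
Log2 fold changes, Acly_KD over control, with 95% intervals from edgeR for the markers and opposite features with enough reads, and for other endothelial, mural and fibroblast genes, as deposited and read as mRNA. Notch3 read as mRNA has an interval from -0.27 to 0.70 and Pecam1 at its own locus one from -1.85 to 2.29.

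Levels of the 10 markers were compared per kb of exon. In mean CPM per kb at their own loci over the 6 libraries, Rgs5 was highest with 5.52, followed by Acta2 with 4.27, Notch3 with 3.55, Eng with 3.27 and Pecam1 with 2.12. Dcn had 1.75, Cdh5 1.58 and Kdr 0.538, and Pdgfrb and Col1a1 were lowest with 0.295 and 0.281. Neighbours in this order differed by less than the SD between libraries. Among 16274 protein-coding features with no exons opposite, Rgs5 had a higher value than 97.1% and Col1a1 than 74.7%.

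Summed over libraries, own-locus reads per kb of exon were 12.0 for the mural, 6.47 for the endothelial and 3.55 for the fibroblast markers, against 263 for 16 heart muscle genes. The other endothelial, mural and fibroblast genes had 6.65, 5.73 and 2.85. Genes of vascular signalling had 8.14 and red cell genes 6.35 reads per kb, and in each of several lists 1 gene gave a large share of the reads. Pdgfa, which has 813 bases opposite to other exons, gave 449 of the 1061 vascular signalling reads, and Hbb-bs gave 47 of the 65 red cell reads. Gsn gave 211 of the 431 reads of the other fibroblast genes and Prox1 36 of the 48 lymphatic reads. Of the 964 other endothelial reads, Fabp4 gave 301 and Rasip1, with 720 bases opposite to other exons, 191. Tagln, with 1349 bases opposite, gave 141 of the 445 other mural reads. The lists of other cell types were lower, with 1.21 for endocardial, 1.06 for lymphatic, 0.860 for platelet, 0.466 for epicardial, 0.235 for Schwann cell and 0.0900 for lymphocyte genes, and 4 fat cell genes (Adipoq, Plin1, Cidec and Lep) had 0 reads in every library. The defining markers Ptprc and Adgre1 of white blood cells and macrophages and Thy1 of fibroblasts also had 0 own-locus reads in all 6 libraries. They were named for their 0 reads, from lists in which 11 of 14 macrophage and 23 of 25 other fibroblast genes had reads. Cd163, a macrophage gene with no exons opposite, had 81. The macrophage list reached 8.15 reads per kb, of which Csf1r held 325 of 486 reads, and Csf1r shares 873 exonic bases with a gene on the other strand. Among heart muscle genes, Myh6 had 1496, 1939 and 6717 own-locus reads in Acly_KD and 2195, 5933 and 4067 in control. It has 114 bases opposite to other exons. Own-locus counts do not show by themselves whether the mRNA of a gene was present or absent.

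**Figure D5:**
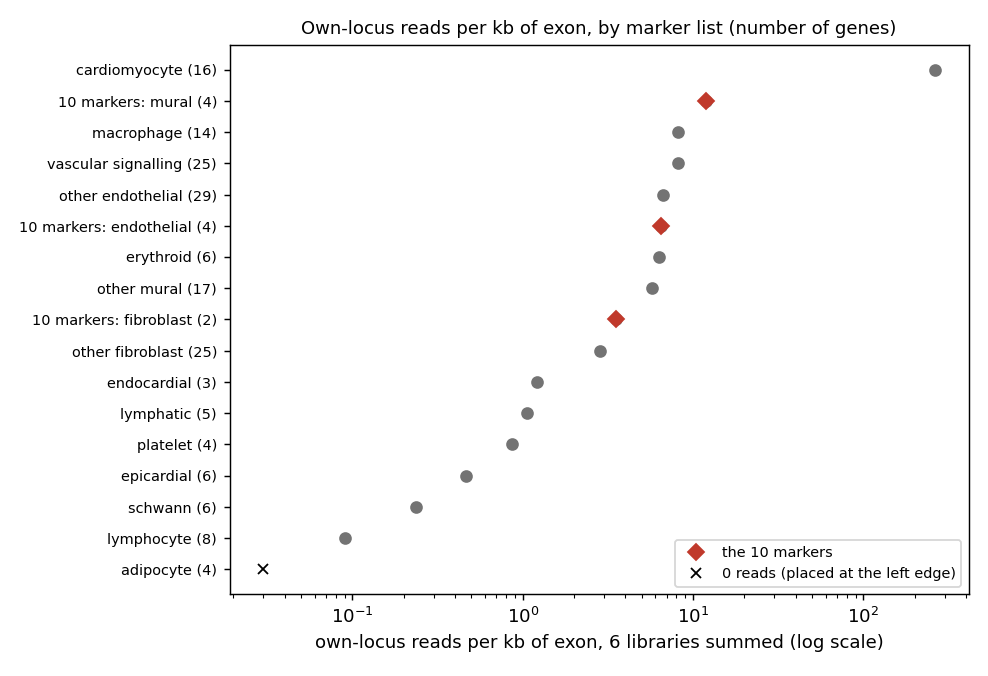
Own-locus reads per kb of exon, summed over the 6 libraries (log axis), for the 10 markers by cell type (red diamonds) and for the other gene lists (grey points), with the number of genes in brackets. Heart muscle genes reach 263 reads per kb, the mural, endothelial and fibroblast markers 12.0, 6.47 and 3.55, and the fat cell list 0.

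Other genes of the same cell types, chosen by name like the markers, were read from the same fits. As deposited, 0 of 5 endothelial, 0 of 3 mural and 0 of 1 fibroblast genes with enough reads were called by edgeR, where 0.00% of all features were. Their median log2 fold changes were -0.21, 0.01 and -0.44, against -0.04 over all features. Fabp4 had a log2 fold change of -0.21 and Rasip1, a regulator of vessel lumen formation, one of -0.57. Tagln, a smooth muscle actin-binding protein, was at 0.13, Abcc9, the regulatory subunit of a potassium channel in pericytes and muscle, at 0.01, and Gsn, which encodes the actin-severing protein gelsolin, at -0.44. Rasip1, Tagln and Abcc9 have 720, 1349 and 158 exonic bases opposite to other exons, so their counts can hold reads of the genes across from them.

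Read as mRNA, 0 of 2 endothelial, 0 of 1 mural and 0 of 2 fibroblast genes were called, where 0.413% of all genes were. Nos3, the endothelial nitric oxide synthase, was read through Gm15587 and Atg9b with 355, 280 and 401 reads in Acly_KD, against 178, 752 and 600 in control. At 1094 ± 159 CPM in Acly_KD and 1549 ± 251 CPM in control (SD, n = 3 each), its log2 fold change was -0.52 (95% interval -0.82 to -0.22), and it did not pass the adjustment (adjusted p = 0.114 in edgeR). The groups overlapped in CPM. Together Gm15587 and Atg9b share 1334 exonic bases with Nos3, and their counts can also hold reads from elsewhere in these features. Ecscr, an endothelial surface protein gene read through 1700066B19Rik over only 62 bases, was at -0.06. Abcc9, read through an antisense RNA over 158 bases, had a log2 fold change of -0.09 (95% interval -0.38 to 0.20, adjusted p = 0.915 in edgeR). Col5a1, a fibrillar collagen gene, was read through Gm13372 over 113 bases. It had 67.0 ± 12.2 CPM in Acly_KD and 38.8 ± 7.501 CPM in control (SD, n = 3 each), at a log2 fold change of 0.82 (adjusted p = 0.578 in edgeR). Its groups lay apart, as they did for 14.7% of all genes in this reading. Fn1, the fibronectin gene, was at -0.29. The counts of Col5a1 were 29, 13 and 24 in Acly_KD and 6, 13 and 16 in control.

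Ligands and receptors of the vascular pathways in which the markers act were measured as well. As deposited 0 of 4 genes were called by edgeR, and read as mRNA 0 of 4. The shares over the whole readings were 0.00% of features and 0.413% of genes. As deposited, Vegfa, the ligand of Kdr, had 35, 22 and 63 reads in Acly_KD, against 29, 58 and 41 in control, with a log2 fold change of -0.26. Pdgfa, a PDGF ligand, had 0.24. Read as mRNA, Notch1, the Notch receptor of endothelium, had a log2 fold change of -0.0015 (95% interval -0.37 to 0.37, adjusted p = 0.995 in edgeR). Angpt1, the ligand of the endothelial receptor Tek, was read through Gm17473 over 737 bases. Angpt1 had 26, 13 and 29 reads in Acly_KD, against 30, 38 and 32 in control. That was 68.4 ± 7.91 CPM in Acly_KD and 130 ± 72.6 CPM in control (SD, n = 3 each). Control replicate 1 had 30 of these reads though it was the library with the fewest reads in this reading. The log2 fold change of Angpt1 was -0.78 (adjusted p = 0.514 in edgeR), in groups that lay apart in CPM, as for 14.7% of all genes in this reading.

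Among the lists of other cell types, 0 of 2 macrophage genes and 0 of 1 red cell genes with enough reads were called as deposited, where 0.00% of all features were. Read as mRNA, 0 of 1 lymphatic genes were called, where 0.413% of all genes were. The macrophage genes were Csf1r (log2 fold change -0.03) and Cd163 (0.48), the red cell gene was Hbb-bs, which encodes a beta globin (-0.97), and the lymphatic gene was Prox1 (0.18), which heart muscle cells also express. The lymphocyte, Schwann cell, epicardial, endocardial, platelet and fat cell lists had no gene with enough reads in either reading. The 6 epicardial genes summed to 0, 0 and 0 reads in Acly_KD, against 2, 5 and 3 in control, which is at or near the 3 reads that a count of 0 allows in a library. The groups did not overlap for this sum in CPM, per muscle read or per read in features with no exons opposite. In CPM the groups were apart for 11.4% of single features tested, a share that is not over sums of genes.

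Heart muscle genes, against which the marker reads were set, had 0 of 15 called by edgeR as deposited and 0 of 4 read as mRNA. The shares over the whole readings were 0.00% of features and 0.413% of genes. As deposited, Myh6 had a log2 fold change of -0.43 (95% interval -1.73 to 0.86) and Tnnt2, which encodes cardiac troponin T, one of -0.54 (95% interval -1.67 to 0.58). Read as mRNA, the list had a median log2 fold change of 0.07. Ckm, the muscle creatine kinase gene, was at -0.20 (95% interval -0.37 to -0.02, adjusted p = 0.471 in edgeR), in groups that lay apart. Atp2a2, which encodes the pump that returns calcium to its store, was read through Gm43361 over 83 bases and was at 0.03 (adjusted p = 0.943 in edgeR). Ttn, the titin gene, was read through Gm13938 over 453 bases. It had 883, 595 and 761 reads in Acly_KD, against 191, 702 and 635 in control, in groups that also lay apart in CPM. Its log2 fold change was 0.58 (95% interval 0.29 to 0.87, adjusted p = 0.0731 in edgeR). In this reading the groups lay apart for 14.7% of all genes. At its own locus Ttn had a log2 fold change of -0.40 (95% interval -1.65 to 0.84), in groups that overlapped. Ttn was named after its values were seen.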

How the data were processed

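The authors deposited counts of reads per gene feature, whole numbers with no normalization, 1 table per library. Per the submitters' processing notes, the tools were FastQC, TopHat2, SAMtools, HTSeq and DESeq2 (no versions) on mm10. How strand was set in counting is not stated in the sources used here. Rows that name no gene, which held 97.4% to 97.7% of all counts, stayed out of library sizes and tests. Of the uniquely aligned reads, 2.81% to 3.07% per library fell in features. Features were matched by identifier to GENCODE M21 of the same build (45143 of 46078).

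Acly_KD (n = 3) was tested over control (n = 3) by the quasi-likelihood method of edgeR 4.0.16 (R 4.3.3), in its robust form, after TMM scaling and filterByExpr (minimum count 10). Adjusted p-values are Benjamini-Hochberg, called under 0.05. CPM use the same library sizes. In the reading as mRNA, the counts of a feature were moved to the gene that took 80% or more of its opposite-strand overlap, with 50 or more bases in common, provided that gene was absent from the tables or had fewer reads itself (2973 genes, 1453 tested).

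Named were all 10 markers, the features opposite to them, Acly, and from each further list the genes that passed, or otherwise the 2 with the highest mean CPM in a reading. Outside that rule, and named after their values were seen, are Ttn and genes with 0 reads. The 8 heart muscle genes of the denominator are those of that list with no exons opposite. Markers and lists were chosen with earlier results of these data known. Replicate libraries differed beyond sampling noise (chi-square per degree of freedom 4.37 to 13.4). The steps were tested on simulated counts. Alternatives were DESeq2 1.42.0, other scalings and filters, a replicate block, other forms of the mRNA rule and each library left out.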

Additional observations from a re-analysis of the deposited data

How the results depend on the processing

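The count of called markers was 0 in the main test and in every alternative, 14 as deposited and 15 in the reading as mRNA, with 0 to 10 and 1 to 2 markers measured. These included DESeq2's test and size factors, library totals, all uniquely aligned reads, no filter, a minimum count of 30 (which left 0 markers as deposited), and each library left out, where the called markers ranged from 0 to 0. A fit with a replicate block also called 0 in both readings. Libraries with the same number did not deviate together (correlations of -0.19 to -0.02 within a number), so the numbers were not taken as pairs, and under the block the log2 fold change of Pecam1 was -0.20 in place of 0.22. With single libraries left out, the log2 ratio of the summed endothelial markers ran from -1.10 (without Acly_KD replicate 3) to 0.68 (without Acly_KD replicate 1). The mural ratio then ran from -0.66 to 0.19 and the fibroblast ratio from -0.33 to 0.31. Set against reads in features with no exons opposite, the fibroblast ratio was 0.38. Against heart muscle reads, added after the data were seen, the endothelial, mural and fibroblast ratios were 0.47, 0.33 and 0.83. The main values were 0.22, -0.16 and 0.01. The heart muscle scale is lower in Acly_KD (15 of 15 heart muscle genes tested had a log2 fold change below zero, median -0.43), and its part in these ratios was not tested. Without Acly_KD replicate 3, 69 features of the whole table were called as deposited in place of 0, none of them a marker. Scaling to features with no exons opposite moved the median log2 fold change of all features from -0.04 to 0.31, and Rgs5 there was at 0.10 in place of -0.05. Scaling to uniquely aligned reads put Notch3 at its own locus at -0.02 in place of 0.04. Each of the 10 markers rests on 6 to 108 own-locus reads in all, and that depth limits every comparison here.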
